A study of Homo sapiens with 12 samples.

Results

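The RAB small GTPases were followed across 2 lines and 2 RNA fractions of HEK293T cells, a line derived from human embryonic kidney. Members were all gene names made of RAB, a number and at most 1 letter from A to D, which gave 64 of the 59385 names in the count table. One line carried a Dox-inducible non-targeting shRNA (shCtrl) and the other a Dox-inducible shRNA against the RNA-binding protein PRRC2B (shPRRC2B), and both were sampled 36 h after Dox was added. Each line was grown from a single clone after puromycin selection, so the shRNA and the clone cannot be told apart. Total RNA and polysome-associated RNA, the pooled heavy fractions of a sucrose gradient, were sequenced in 3 biological replicates per line and fraction, giving 12 libraries. The comparison asked whether the mRNAs changed their share on polysomes after PRRC2B knockdown, and TE (translation efficiency) here is the polysome-to-total ratio of an mRNA.

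RAB proteins are small GTPases that mark the membranes of the secretory and endocytic routes. A guanine nucleotide exchange factor loads a RAB with GTP on its membrane, the GTP form recruits effectors that tether, move or fuse vesicles, and a GTPase-activating protein of the TBC family turns it off. GDI then extracts the prenylated RAB and returns it to the cytosol. Many RABs exist as close paralogs that share a function and a coding length but carry unlike 3′ UTRs.

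RAB5B, an early endosome RAB, and RAB7A, the RAB of late endosomes and lysosomes, are the members that the study lists as bound in PAR-CLIP by the whole PRRC2B protein and also by P2, the fragment of it that binds RNA. PAR-CLIP is a crosslinking assay that maps where a protein sits on RNA. Their sites carry the reason for asking about these genes, so the central 30 nt of each are shown as DNA letters of hg38, 5′ to 3′ on the plus strand, with the longest run of C and T in capitals. The RAB5B stretch is chr12:55993355-55993384 and lies in the last exon, with the centre of the site 1157 nt after the stop codon in a 3′ UTR of 4471 nt. The RAB7A stretch is chr3:128813481-128813510 and lies 73 nt after the stop codon in a 3′ UTR of 1376 nt. RAB1B had 2 sites of the full-length protein in its 3′ UTR, and the first, chr11:66276576-66276605, held the longest run within any of these 30-nt stretches, 19 nt. RAB8A had a site of the full-length protein in its coding sequence, 108 nt after the start codon (chr19:16111995-16112024). RAB10 had a site of P2 in its 5′ UTR, 413 nt before the start codon (chr2:26034182-26034211). RAB2A had a site in its 3′ UTR and its sequence is not shown.
RAB5B: TCCTCCaactctaattattaacctatattc
RAB7A: caacacaaTTCCCCTCTCCTCTTCCaaaca
RAB1B: tgggTTCTCTCCTTCTTCTTCCTgctgtcc
RAB8A: gCCTTCaactccacttttatctccaccata
RAB10: gacttaggggTCCTTCTTCgctgccctcgc
Within the 30 nt shown, the run was 17 nt in RAB7A and 6 nt in RAB5B. The RAB5B run starts at the first base shown, so its full length is not known. C and T made up 64% of the RAB5B site and 55.5% of its whole 3′ UTR, and 57% of the RAB7A site and 54.9% of its 3′ UTR.

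Libraries held 9855734 to 20837542 counted read pairs. Levels are given as CPM, counts relative to library size after TMM scaling between libraries. PRRC2B mRNA averaged 281 CPM in the control line (SD 28.7, n = 3) and 100.3 CPM in the knockdown line (SD 2.32, n = 3) in total RNA, a log2 change of -1.49. The kidney-line markers KRT8, KRT18, VIM, CDH2, NEFM, PAX2 and LIN28B were detected in every library (lowest value 2.55 CPM, PAX2), while PTPRC, PECAM1 and ALB stayed at or below 0.434 CPM. COL1A1, a fibroblast marker, lay between 2.93 and 34.0 CPM. Polysome replicates differed more than total RNA replicates. The chi-square per gene between replicates was 3.26 to 8.57 in total RNA, and it was 53.7 and 75.2 for shCtrl polysome replicate 1 against the others of its group and 37.8 and 37.4 for shPRRC2B polysome replicate 1. The other polysome pairs gave 22.3 and 13.8. Counts and calls below are therefore also given without these 2 libraries where that changes them, a setting added after the data were seen. Nothing in the labels ties replicates to separate clones, so p-values measure the spread between cultures of 1 line.

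Of the 64 members, 56 passed the filter on low counts among 18166 genes tested. The 8 that did not were RAB17, RAB19, RAB1C, RAB33A, RAB37, RAB42, RAB44 and RAB4B, none above 22 counts in any library. Levels per length, as CPM per kb of the canonical transcript in shCtrl total RNA, were highest for RAB7A (57.4), followed by the ER-to-Golgi RAB1B (33.8), the recycling RAB11B (30.8) and RAB1A (27.1). RAB34 (24.2), RAB10 (23.6) and RAB11A (21.8) came next. RAB5B stood at 13.5 CPM per kb, between RAB5A (16.5) and RAB5C (12.2). In bulk RNA a lower level per cell and fewer expressing cells cannot be told apart.

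After PRRC2B knockdown TE rose in 7 members (TE-up) and fell in 10 (TE-down), with an adjusted p below 0.05 and an absolute log2 change above 0.5. These are 12.5% and 17.9% of the members tested, against 10.7% and 16.4% of all genes tested, so the RAB set was called about as often as other genes. The TE-up members were RAB26 (1.53), RAB32 (1.18), RAB39A (1.10), RAB24 (1.10), RAB28 (0.84), RAB40B (0.82) and RAB23 (0.72) on the log2 scale. The TE-down members were RAB3B (-1.95), RAB2B (-1.43), RAB6A (-1.10), RAB21 (-1.02), RAB8B (-0.97), RAB7A (-0.89), RAB14 (-0.80), RAB11A (-0.76), RAB10 (-0.72) and RAB2A (-0.57). The median log2 TE change was -0.26 over the members tested and -0.034 over all genes tested. For the overlap of groups, each polysome-to-total ratio was taken between libraries of the same replicate number, which may not pair the samples. In all 17 called members the 3 ratios of one line did not overlap those of the other. The calls came from the same libraries, so this is not separate support. Such separation held for 12 members upward and 13 downward, against 19.9% and 22% of all genes tested.

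**Figure D1:**
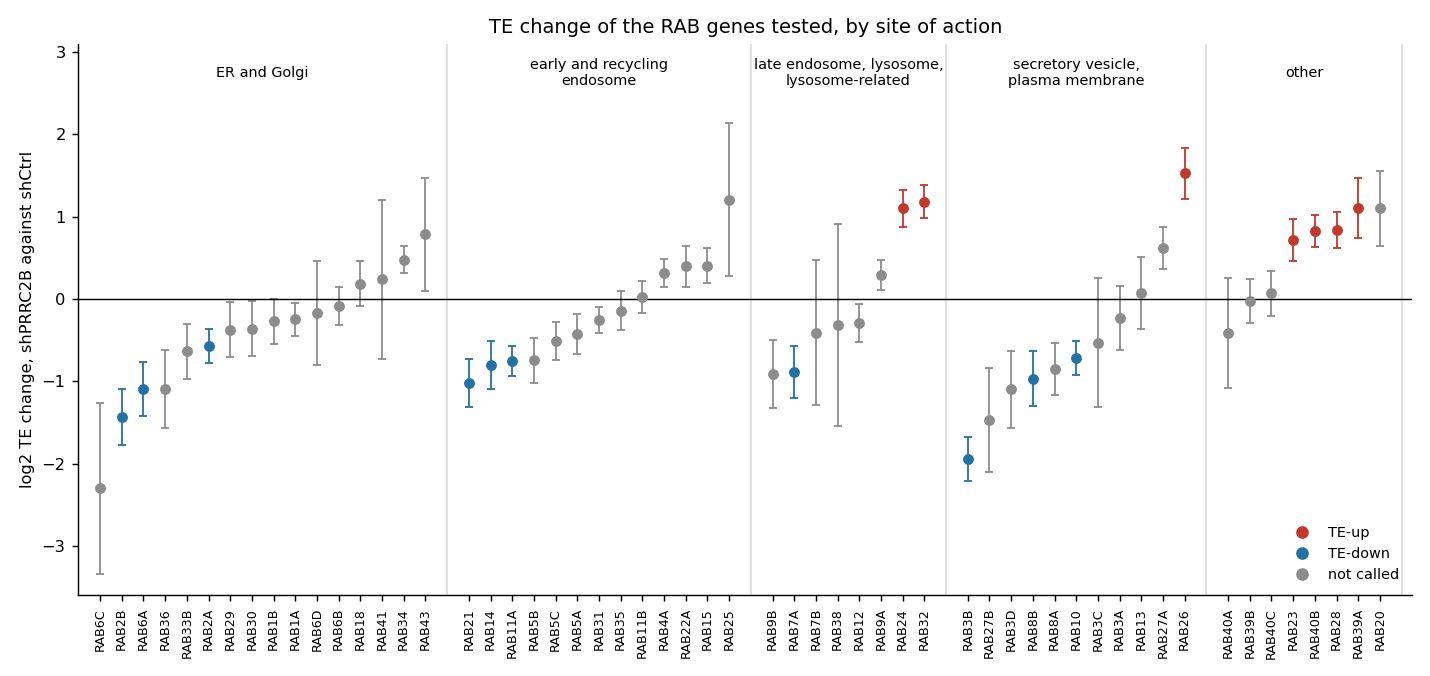
Log2 TE change of the 56 RAB genes tested, grouped by site of action, with points as edgeR estimates and bars as standard errors (12 libraries). TE-down genes (blue) stand among the ER and Golgi, early endosome, late endosome and secretory RABs, and 4 of the 7 TE-up genes (red) stand among the other RABs.

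By site of action, ER and Golgi RABs had 3 TE-down and 0 TE-up members of 16 tested, and early and recycling endosome RABs had 3 and 0 of 13. Late endosome and lysosome RABs had 1 TE-down and 2 TE-up members of 8, and secretory vesicle and plasma membrane RABs had 3 and 1 of 11. The remaining RABs, among them atypical members such as RAB28 and RAB40B, had 0 TE-down and 4 TE-up members of 8, with a median log2 TE change of 0.77. Of these 4, RAB23 kept its call in 9 and RAB39A in 12 of 25 alternative settings. Among the 25 is the reported fit with no minimum log2 change, where no call can be lost. Over all genes tested, 10.7% were TE-up and 16.4% TE-down. The differences between these groups of RABs were not tested.

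The number of TE-down members depended on single libraries more than the number of TE-up members did. It was 17 without shCtrl polysome replicate 1, where 20.1% of all genes tested were TE-down, and 16 without shPRRC2B polysome replicate 1, where 19.3% were. It was 5 when the library left out was replicate 1 of shCtrl total RNA, replicate 2 of shCtrl polysome RNA or replicate 2 of shPRRC2B total RNA, which is 8.93% of the members against 12.9%, 16.8% and 12.7% of all genes. It was 6 when that library was replicate 2 or 3 of shCtrl total RNA, replicate 1 or 3 of shPRRC2B total RNA, or replicate 3 of shPRRC2B polysome RNA, which is 10.7% of the members against 13.1% to 14.6% of all genes. It was 8 without shCtrl polysome replicate 3 (14.3%, against 16% of all genes) and 7 without shPRRC2B polysome replicate 2 (12.5%, against 15.4%). The members' share lay below that of all genes in the fits with 5 to 8 TE-down members. It lay above in the fits without a polysome replicate 1, and neither difference was tested. Without both polysome replicates 1 there were 21 TE-down members (37.5%, against 22.7% of all genes tested) and 10 TE-up members (17.9%, against 15.5%). All 10 of the TE-down members named above were among those 21, and RAB23 was the 1 TE-up member that lost its call there. RAB26, RAB32, RAB24, RAB28 and RAB40B stayed TE-up in each of the 25 alternative settings with TE calls. RAB3B and RAB2B stayed TE-down in each of them. These settings include the reported fit with no minimum log2 change, where no call can be lost.

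**Figure D2:**
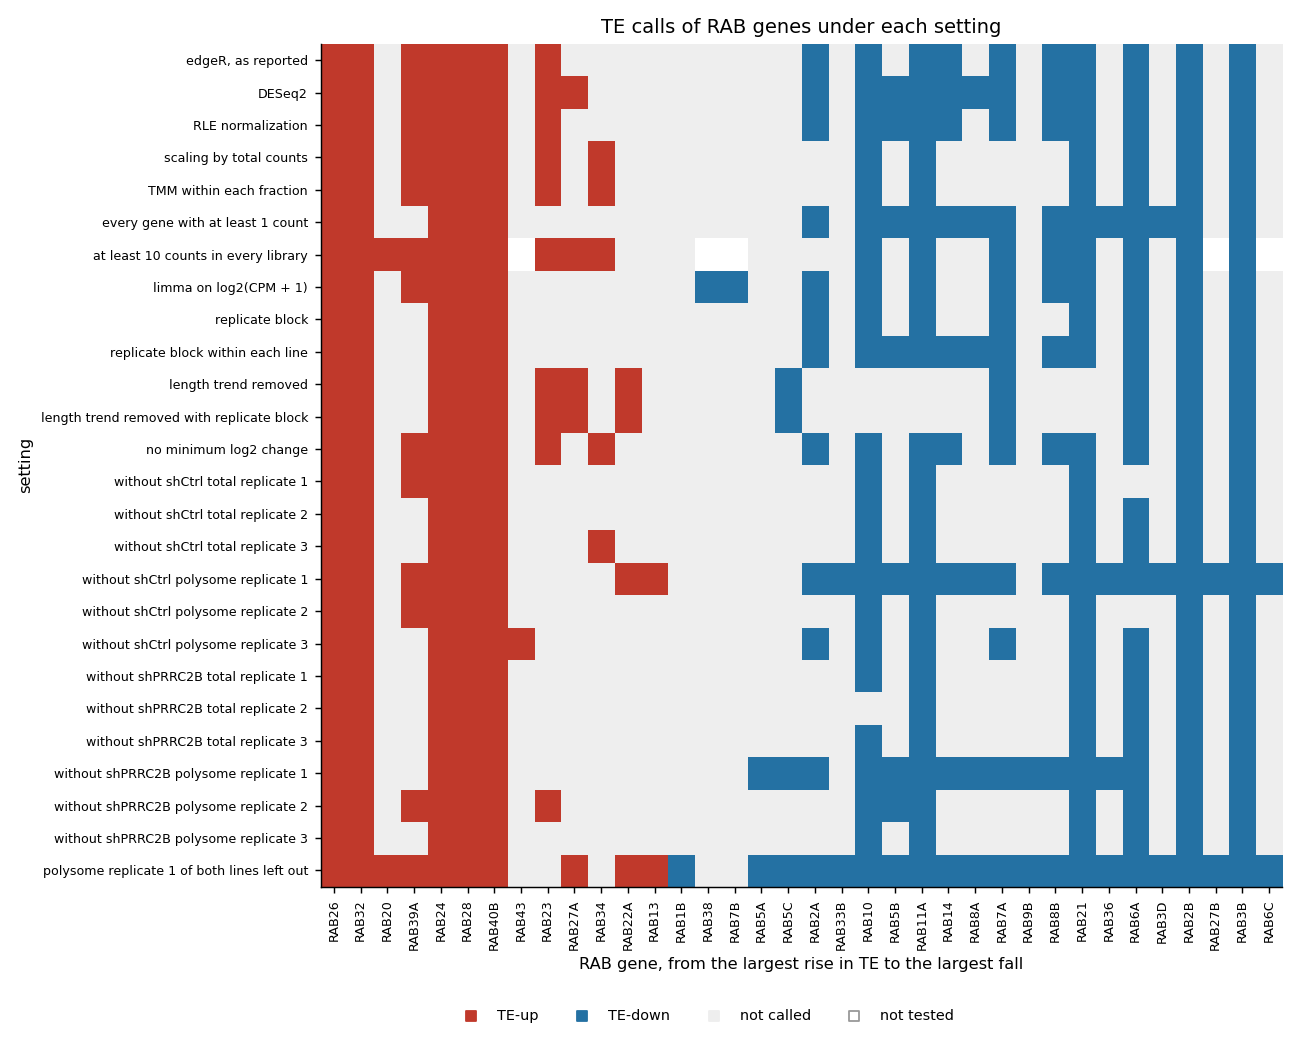
TE calls of RAB genes (columns, from the largest rise to the largest fall) under each setting (lines of the grid), as TE-up (red), TE-down (blue), not called (grey) or not tested (white). RAB26, RAB32, RAB24, RAB28, RAB40B, RAB2B and RAB3B carry the same colour in every line, and most added TE-down calls fall in the lines without polysome replicate 1.

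RAB3B, a RAB of regulated exocytosis, had the largest fall among called members. Its total RNA was 17.999, 17.8 and 20.6 CPM in shCtrl cells and 56.2, 56.8 and 50.2 CPM in shPRRC2B cells. Its polysome RNA was 8.52, 5.53 and 6.21 CPM in shCtrl cells and 3.78, 5.92 and 5.71 CPM in shPRRC2B cells. The groups were far apart in total RNA and overlapped in polysome RNA. The log2 change was 1.54 in total RNA (SE 0.17, adjusted p = 3.32e-06, Benjamini-Hochberg adjusted quasi-likelihood test of edgeR) and -0.41 in polysome RNA (SE 0.21, adjusted p = 0.124), giving a TE change of -1.95 (SE 0.27, adjusted p = 8.43e-05, edgeR). In a fit that first took out of each library how counts depend on transcript length, the length trend, the TE change was -1.06, still TE-down. In that fit 8 members were TE-up, 6 of them shared with the 7 above, and 5 were TE-down, 4 of them shared with the 10 above, against 11% and 9.42% of all genes tested.

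RAB2B, which acts between the ER and the Golgi, had 18.6, 19.0 and 17.1 CPM in shCtrl total RNA and 22.0, 20.6 and 24.0 CPM in shPRRC2B total RNA. On polysomes it had 9.46, 18.4 and 15.9 CPM in shCtrl cells against 8.77, 6.78 and 3.996 CPM in shPRRC2B cells. All 3 knockdown values lay below all 3 control values on polysomes, with shCtrl polysome replicate 1 close to the knockdown range. Its TE change was -1.43 (SE 0.34, adjusted p = 0.00504, edgeR) and its polysome change -1.15 (adjusted p = 0.0015, edgeR). Its paralog RAB2A, also of the ER-to-Golgi step, fell by 0.57 in TE (SE 0.20, adjusted p = 0.0437, edgeR) and was past the thresholds in neither fraction alone. RAB2A lost its call in 9 of the 12 fits that left out 1 library (changes of -0.62 to -0.47) and kept it without shCtrl polysome replicate 1 or 3 or shPRRC2B polysome replicate 1.

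RAB6A, a Golgi RAB of retrograde transport, had polysome RNA of 27.9, 42.8 and 28.5 CPM in shCtrl cells and 24.0, 25.6 and 10.5 CPM in shPRRC2B cells. Its total RNA was 51.7, 54.9 and 62.5 CPM in shCtrl cells against 73.4, 74.3 and 71.7 CPM in shPRRC2B cells, so the groups separated in opposite directions. The TE change was -1.10 (SE 0.33, adjusted p = 0.0192, edgeR), and the call was lost without replicate 1 of shCtrl total RNA or replicate 2 of shCtrl polysome RNA (adjusted p = 0.052 and 0.0529, edgeR). RAB21, an early endosome RAB tied to integrin traffic, has the longest 3′ UTR of the members tested, 14613 nt. Its polysome RNA was 16.7, 22.2 and 20.5 CPM in shCtrl cells and 19.1, 11.8 and 8.47 CPM in shPRRC2B cells, which overlap through shPRRC2B polysome replicate 1. Its TE change of -1.02 (SE 0.29, adjusted p = 0.0161, edgeR) became -0.092 once the length trend was taken out (adjusted p = 0.856, edgeR), which ended the call.

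RAB11A, the RAB of recycling endosomes, had 106, 96.7 and 117 CPM in shCtrl total RNA and 149, 156 and 151 CPM in shPRRC2B total RNA. Its polysome RNA was 203, 259 and 201 CPM in shCtrl cells and 204, 187 and 168 CPM in shPRRC2B cells. Total RNA rose by 0.51 on the log2 scale (SE 0.13, adjusted p = 0.00594, edgeR) while polysome RNA overlapped between the lines, and the TE change was -0.76 (SE 0.18, adjusted p = 0.0058, edgeR). The paralog RAB11B had a TE change of 0.024 (SE 0.19, adjusted p = 0.959, edgeR). With the length trend removed RAB11A stood at -0.33 and RAB11B at -0.20, and neither was called.

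RAB14, which moves between the Golgi and endosomes, had polysome RNA of 33.6, 39.9 and 33.9 CPM in shCtrl cells and 20.8, 17.7 and 8.75 CPM in shPRRC2B cells, with no overlap. Its TE change was -0.80 (SE 0.29, adjusted p = 0.0486, edgeR). RAB8B, a RAB of traffic to the plasma membrane, had a TE change of -0.97 (SE 0.33, adjusted p = 0.0387, edgeR) and a rise of 0.75 in total RNA (adjusted p = 0.0149, edgeR). Both calls of TE were close to the threshold. RAB14 and RAB8B each lost theirs in 10 of the 12 fits that left out 1 library and kept it without replicate 1 of shCtrl polysome RNA or of shPRRC2B polysome RNA. Their changes in the fits that lost it were -0.90 to -0.54 and -1.02 to -0.77. With the length trend removed they stood at -0.49 and -0.56 and were not called.

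Among the TE-up members, RAB32, a RAB of lysosome-related organelles, had the highest polysome level. Its total RNA was 18.3, 22.3 and 18.4 CPM in shCtrl cells and 26.8, 24.2 and 23.3 CPM in shPRRC2B cells. On polysomes it had 75.7, 102 and 98.1 CPM in shCtrl cells against 227, 278 and 284 CPM in shPRRC2B cells. The polysome groups were far apart, and the TE change was 1.18 (SE 0.20, adjusted p = 0.000442, edgeR).

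RAB26, a RAB of secretory granules, had the largest rise among called members. It had 6.57, 6.13 and 4.70 CPM in shCtrl total RNA and 5.88, 6.08 and 7.39 CPM in shPRRC2B total RNA, which overlap. On polysomes it had 12.1, 8.36 and 10.2 CPM in shCtrl cells and 22.6, 35.3 and 39.7 CPM in shPRRC2B cells. The TE change was 1.53 (SE 0.31, adjusted p = 0.00172, edgeR), carried by the polysome fraction.

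RAB24, an atypical RAB linked to autophagy, had polysome RNA of 17.4, 22.1 and 19.3 CPM in shCtrl cells and 32.4, 43.2 and 32.3 CPM in shPRRC2B cells, and a TE change of 1.10 (SE 0.23, adjusted p = 0.0019, edgeR). Of its exon length 44.8% is shared with MXD3 on the same strand, so pairs there could not be assigned to 1 gene. RAB40B, which joins a ubiquitin ligase through its SOCS box, had 81.4, 64.0 and 85.6 CPM on polysomes in shCtrl cells and 113, 119 and 145 CPM in shPRRC2B cells, and a TE change of 0.82 (SE 0.19, adjusted p = 0.00487, edgeR). In both genes the polysome values did not overlap between the lines and the total RNA was not called.

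RAB28, an atypical RAB of cilia, fell in total RNA from 21.4, 21.9 and 23.8 CPM to 14.7, 15.6 and 15.9 CPM (log2 change -0.54, adjusted p = 0.013, edgeR), while its polysome RNA was not called. RAB39A fell in total RNA from 6.41, 7.997 and 7.67 CPM to 3.22, 3.79 and 3.63 CPM (log2 change -1.05, adjusted p = 0.00234, edgeR), again with polysome RNA not called. These were the 2 TE-up members called in total RNA and not on polysomes. RAB39A lost its TE call in 8 of the 12 fits that left out 1 library (changes of 0.91 to 1.16) and kept it when the library left out was replicate 1 of shCtrl total RNA, replicate 1 or 2 of shCtrl polysome RNA, or replicate 2 of shPRRC2B polysome RNA. RAB23, a regulator of Hedgehog signalling, had a TE change of 0.72 (SE 0.26, adjusted p = 0.0452, edgeR) and kept its call without shPRRC2B polysome replicate 2 but not in the other 11 such fits (changes of 0.53 to 0.81), nor without both polysome replicates 1 (0.42). Of the exon length of RAB23, 57.8% overlaps BAG2 on the opposite strand.

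The RAB5 paralogs control the same step, the fusion of early endosomes. RAB5B total RNA was 70.0, 72.2 and 71.7 CPM in shCtrl cells and 90.5, 93.6 and 94.4 CPM in shPRRC2B cells. Its polysome RNA was 20.5, 37.5 and 32.1 CPM in shCtrl cells and 27.2, 26.6 and 16.0 CPM in shPRRC2B cells. The lines separated in total RNA and overlapped on polysomes, where shCtrl replicate 1 was the lowest control value. Neither change was called, with 0.38 in total RNA (SE 0.19, adjusted p = 0.124, edgeR) and -0.36 on polysomes (SE 0.20, adjusted p = 0.153, edgeR). The TE change of RAB5B was -0.75 (SE 0.27, adjusted p = 0.052, edgeR), which missed the threshold. It was called without shCtrl polysome replicate 1 (-0.98), without shPRRC2B polysome replicate 1 (-0.93) or 2 (-0.86), without both polysome replicates 1 (-1.14, adjusted p = 0.000162, edgeR), with RLE scaling (-0.76), with every gene of at least 1 count kept (-0.79), and by DESeq2 (-0.76). It was not called in the other 9 fits that left out 1 library. Nor was it called with scaling by total counts, TMM within each fraction, at least 10 counts in every library or limma. In the fit without the length trend the TE change of RAB5B was -0.28 (adjusted p = 0.475, edgeR).

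RAB5A fell in both fractions, from 41.5, 39.7 and 43.3 CPM to 26.5, 29.3 and 29.3 CPM in total RNA and from 38.8, 40.7 and 31.8 CPM to 25.6, 15.2 and 15.7 CPM on polysomes. Neither pair of groups overlapped, and the log2 changes were -0.55 (adjusted p = 0.0178, edgeR) and -0.97 (adjusted p = 0.000289, edgeR). RAB5C had 18.5, 22.1 and 19.6 CPM in shCtrl total RNA and 27.5, 26.5 and 27.7 CPM in shPRRC2B total RNA, with polysome RNA of 36.2 to 45.6 CPM and 28.3 to 47.5 CPM. TE changes were -0.42 (SE 0.24) for RAB5A and -0.51 (SE 0.24) for RAB5C, neither called, with 3′ UTRs of 1352 and 804 nt. The 3 paralogs had TE changes of one sign, and the difference between them was not tested. Without shPRRC2B polysome replicate 1, RAB5A (-0.77) and RAB5C (-0.77) were called TE-down, and without both polysome replicates 1 they were called at -0.73 and -0.64. The length-adjusted fit gave -0.72 for RAB5C (adjusted p = 0.0442, edgeR), which was then called.

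RAB7A total RNA was 119.7, 127 and 129 CPM in shCtrl cells and 116, 119 and 118 CPM in shPRRC2B cells, with the knockdown values just under the control values and a log2 change of -0.09 (SE 0.22). Its polysome RNA was 103, 149 and 113 CPM in shCtrl cells and 88.4, 62.0 and 34.3 CPM in shPRRC2B cells. The polysome groups did not overlap, and the 3 knockdown values were spread over a wide range. The polysome change was -0.98 (SE 0.23, adjusted p = 0.00199, edgeR) and the TE change -0.89 (SE 0.31, adjusted p = 0.0436, edgeR). The TE call was kept without shCtrl polysome replicate 1 or 3 or shPRRC2B polysome replicate 1 and lost in the other 9 fits that left out 1 library (changes of -0.91 to -0.63, adjusted p = 0.0588 to 0.108, edgeR). The change was -1.40 without both polysome replicates 1, still called, and -0.99 with the length trend removed. RAB7B, its low-level paralog, had 1.21, 1.06 and 0.829 CPM in shCtrl total RNA and 0.187, 0.179 and 0.0874 CPM in shPRRC2B total RNA. Its log2 change was -2.72 in total RNA (adjusted p = 0.000946, edgeR) and -3.13 on polysomes (adjusted p = 0.000145, edgeR), and its TE change was -0.41 (SE 0.88). These values rest on 2 to 6 counts in each knockdown library.

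**Figure D3:**
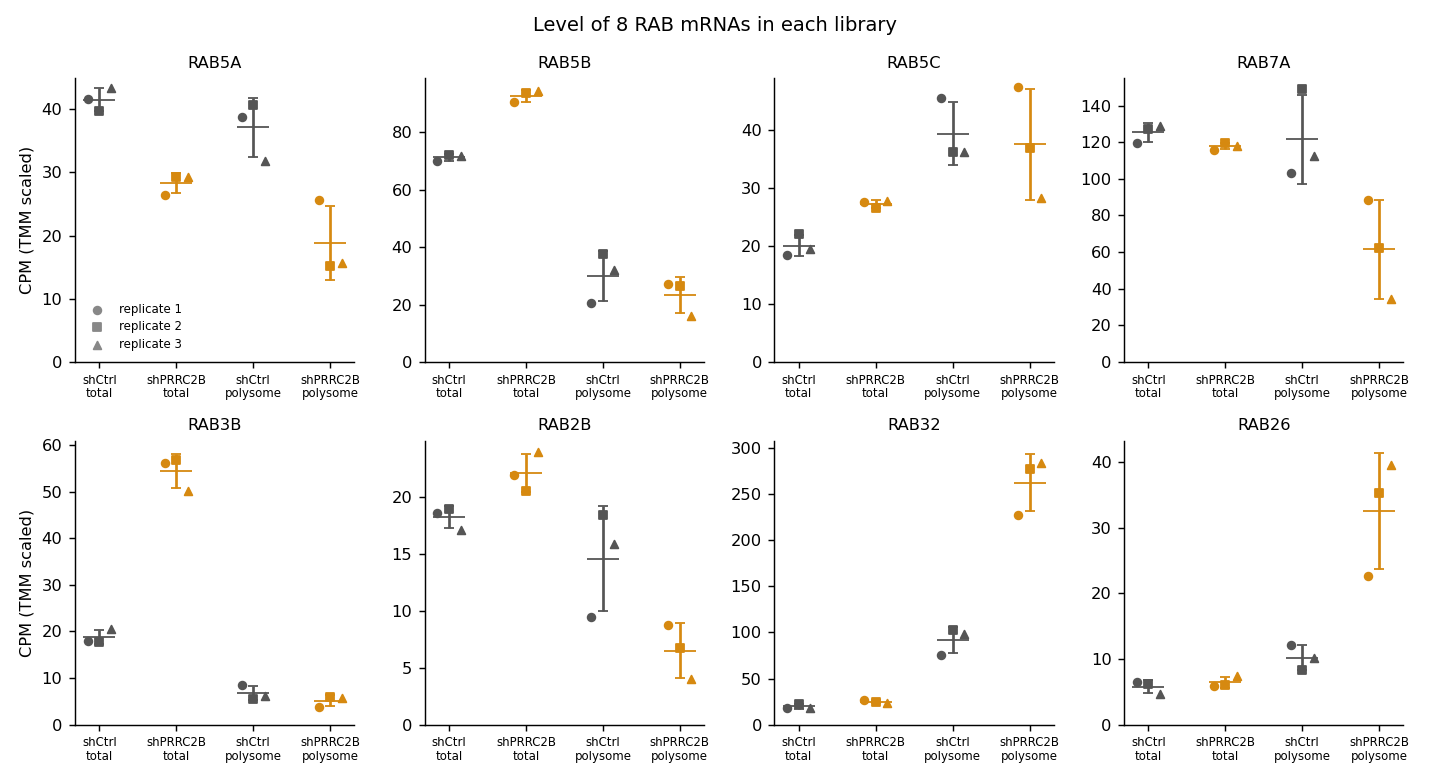
Levels of 8 RAB mRNAs in each library, as CPM scaled by TMM, with 3 replicates per group (circle, square and triangle for replicates 1, 2 and 3), the mean as a line and the SD as bars. RAB3B rises in total RNA without a rise on polysomes, RAB5B has higher total RNA values in the knockdown line with a change that was not called, RAB7A and RAB2B fall on polysomes, and RAB32 and RAB26 rise on polysomes.

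Of the other members with a PAR-CLIP site, RAB10 and RAB2A were called TE-down, and RAB8A and RAB1B were not called. RAB10, a RAB of exocytic carriers, had polysome RNA of 69.8, 76.0 and 64.0 CPM in shCtrl cells and 57.4, 57.2 and 37.1 CPM in shPRRC2B cells, without overlap. Its TE change was -0.72 (SE 0.21, adjusted p = 0.017, edgeR), which missed the threshold without shPRRC2B total replicate 2 (-0.67, adjusted p = 0.0518, edgeR) and with the length trend removed (-0.50). RAB8A had a TE change of -0.85 (SE 0.31, adjusted p = 0.0525, edgeR), called without shCtrl polysome replicate 1 (-1.08), shPRRC2B polysome replicate 1 (-1.15) or both (-1.36), with every gene of at least 1 count kept (-0.89) and by DESeq2 (-0.86). RAB8A was not called in the other 10 fits that left out 1 library, nor with the length trend removed. RAB1B had a TE change of -0.27 (SE 0.27, adjusted p = 0.493, edgeR) and was called TE-down without both polysome replicates 1 (-0.64). Its first site held the longest C and T run shown above. Of the exon length of RAB8A 43.9% and of RAB1B 43.8% is shared with other annotated genes.

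Total RNA was higher in 11 members (14.9% of all genes tested were) and lower in 10 (14.1% were). Polysome RNA was higher in 11 (18.4%) and lower in 14 (21.4%). The lines did not overlap upward in total RNA in 26 members and downward in 14, against 34.1% and 28.8% of all genes tested, and on polysomes in 13 and 14 members, against 21.6% and 21.5%. Of the 7 TE-up members, 5 had higher polysome RNA alone and 2 had lower total RNA alone. Of the 10 TE-down members, 5 had lower polysome RNA alone, 3 had higher total RNA alone (RAB3B, RAB8B and RAB11A), and 2 (RAB10 and RAB2A) were called in neither fraction. A further 4 members rose and 8 fell in both fractions, against 6.55% and 6.36% of all genes tested. None of these 12 had a TE call, against 13.2% of all genes called the same way in both fractions. Shares of all genes were not counted in the fits that follow, so these numbers cannot be set against the series. The number with lower polysome RNA was 21 without shCtrl polysome replicate 1 and 22 without both polysome replicates 1. The number with higher total RNA was 6 when the library left out was replicate 1 or 2 of shCtrl total RNA, replicate 1 or 2 of shPRRC2B total RNA, or replicate 2 of shPRRC2B polysome RNA, and the number with lower total RNA was 6 without shCtrl total replicate 3.

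**Figure D4:**
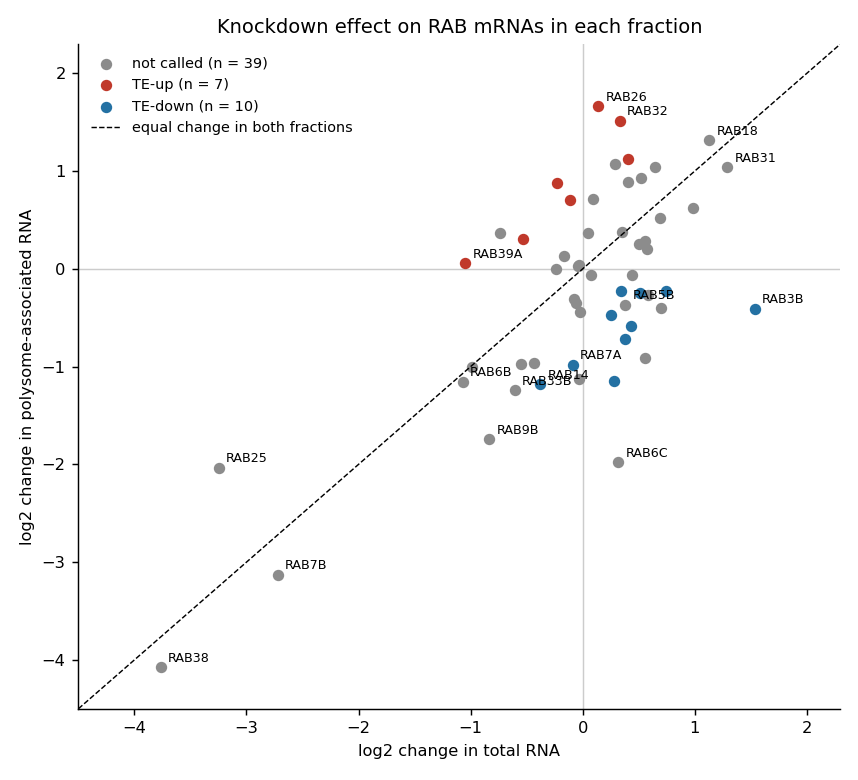
Log2 change in total RNA (horizontal) and in polysome-associated RNA (vertical) between shPRRC2B and shCtrl cells for the 56 RAB genes tested, each point a gene coloured by TE call (red TE-up, blue TE-down, grey not called), with the dashed line marking equal change. RAB38 and RAB7B lie near the line far below 0, RAB31 and RAB18 lie near it above 0, and RAB3B lies to the right of it.

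The members that rose in both fractions were RAB31, RAB18, RAB22A and RAB15. RAB31, a paralog of RAB22A at the trans-Golgi network and endosomes, rose from 29.5, 29.4 and 30.0 CPM to 72.8, 72.9 and 71.6 CPM in total RNA and from 43.6, 42.8 and 37.8 CPM to 92.7, 81.8 and 80.5 CPM on polysomes. The spread was small, and the log2 changes were 1.29 (SE 0.11) and 1.04 (SE 0.12), with a TE change of -0.25 (adjusted p = 0.26, edgeR). RAB18, a RAB of the ER and lipid droplets, rose by 1.13 (SE 0.19) in total RNA and 1.32 (SE 0.20) on polysomes. RAB22A rose by 0.64 and 1.04, with a TE change of 0.40 that was called without shCtrl polysome replicate 1 (0.71), without both polysome replicates 1 (0.67) and with the length trend removed (1.152). RAB30, a Golgi RAB, rose in total RNA from 3.85, 4.97 and 5.39 CPM to 8.91, 9.66 and 9.40 CPM.

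The members that fell in both fractions were RAB38, RAB7B, RAB25, RAB9B, RAB6B, RAB39B, RAB33B and RAB5A. RAB38, a melanosome RAB close to RAB32, had 2.19, 2.99 and 1.17 CPM in shCtrl total RNA and 0.233, 0.179 and 0.0437 CPM in shPRRC2B total RNA, and on polysomes 5.24, 6.29 and 7.65 CPM against 0, 1.05 and 0.0951 CPM. RAB25, an epithelial relative of RAB11, had 0.641, 0.511 and 0.622 CPM in shCtrl total RNA and 0, 0.0358 and 0.131 CPM in shPRRC2B total RNA. These levels rest on 0 to 5 counts in each knockdown library of total RNA, so the fitted log2 changes in total RNA of -3.77 (SE 0.69) and -3.25 (SE 0.76) depend on the prior of the fit. RAB6B, a paralog of RAB6A known from neurons, fell from 33.0, 37.9 and 33.6 CPM to 17.6, 17.99 and 14.1 CPM in total RNA and from 17.7, 19.4 and 14.4 CPM to 8.17, 8.02 and 6.94 CPM on polysomes, a TE change of -0.083 (SE 0.23).

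Across the 56 members tested, a longer 3′ UTR went with a lower TE change. Spearman's rho was -0.47 (Pearson's r on log2 length -0.51), and over the 13580 genes with an annotated 3′ UTR it was -0.31 (-0.26). These are correlations across genes that share the same libraries. Coding length, which spans 585 to 1023 nt among the members tested, gave a rho of 0.089 among members and -0.34 over all genes. The total RNA change had a rho of 0.40 with 3′ UTR length among members (0.097 over all genes) and the polysome change -0.11 (-0.23 over all genes). With the length trend removed, the rho of the TE change was -0.075 among members. That fit removes a trend on transcript length, whose rho with the TE change among members was also -0.47. A smaller rho there follows in part from how the fit was made, so it cannot separate 3′ UTR length from transcript length.

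Of the 18 members with the shortest 3′ UTRs (217 to 1254 nt), 5 were TE-up and 0 TE-down. Among all genes with a 3′ UTR of up to 1254 nt, also shorter than 217 nt, 13.3% and 11.2% were. Of the 19 with 3′ UTRs of 1352 to 2875 nt, 0 were TE-up and 5 TE-down, against 6.33% and 25.1% of all genes above 1254 and up to 2875 nt. Of the 19 with the longest 3′ UTRs (2890 to 14613 nt), 2 were TE-up and 5 TE-down, against 4.92% and 35.7% of all genes above 2875 nt. RAB40B and RAB23 are the TE-up members with long 3′ UTRs.

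**Figure D5:**
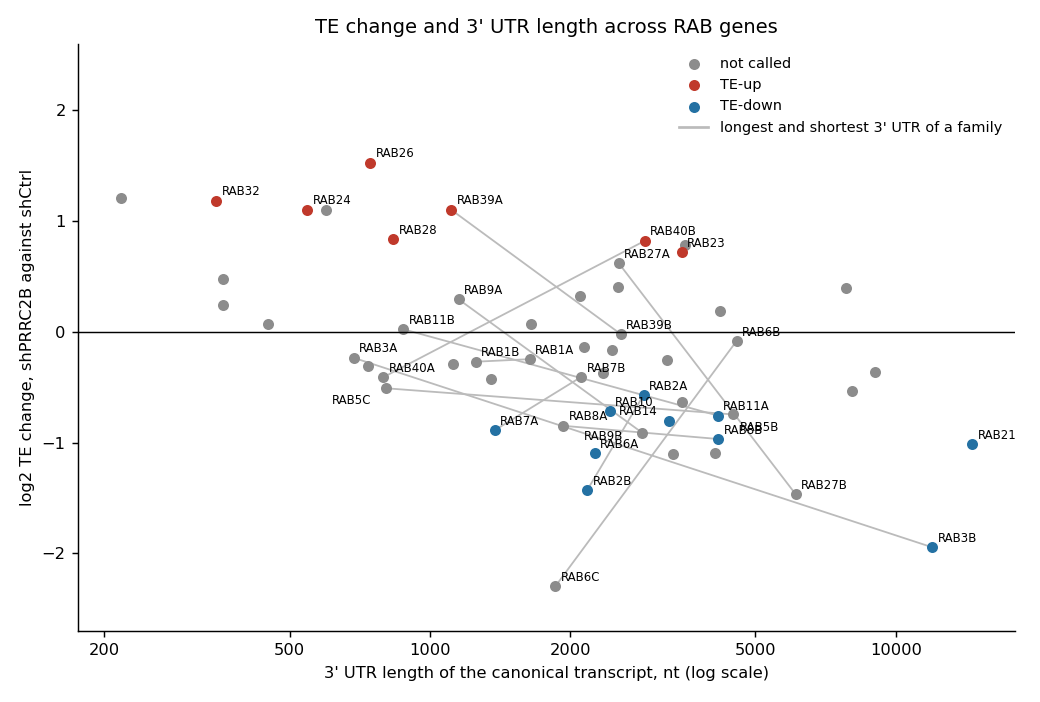
Log2 TE change of 56 RAB genes against the 3′ UTR length of the canonical transcript (log axis, nt), coloured by TE call, with grey lines joining the members of a family with the longest and the shortest 3′ UTR. TE-up genes gather at short 3′ UTRs, and the lines slope down in 7 of 12 families.

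Paralogs allow the same comparison at like coding length. In 12 families with at least 2 members tested, the member with the longest 3′ UTR had the lower TE change in 7 and, with the length trend removed, in 5. The pair differed by more than 1 on the log2 scale in 6 families, and no test was made of these differences. RAB3B (11971 nt, -1.95) stood below RAB3A (686 nt, -0.23). RAB27B (6103 nt, -1.47) stood below RAB27A (2541 nt, 0.62), RAB9B (2852 nt, -0.91) below RAB9A (1152 nt, 0.29) and RAB39B (2568 nt, -0.020) below RAB39A (1110 nt, 1.10). RAB40B (2890 nt, 0.82) stood above RAB40A (793 nt, -0.41), and RAB6B (4553 nt, -0.083) above RAB6C (1858 nt, -2.30). RAB6C is a near copy of RAB6A and had at most 1.52 CPM in any library, so its value is uncertain. RAB27B was at or below 2.88 CPM. Without both polysome replicates 1, RAB27B (-2.00), RAB9B (-1.37) and RAB6C (-3.79) were called TE-down and RAB27A (0.66) TE-up. RAB27B (-1.76) and RAB6C (-2.87) were also called without shCtrl polysome replicate 1, RAB9B (-1.25) without shPRRC2B polysome replicate 1, and RAB27A by DESeq2 (0.60), with at least 10 counts in every library (0.69) and with the length trend removed (0.82). Without shCtrl polysome replicate 1, RAB3A turned to 0.30 against -1.76 for RAB3B, and RAB40A turned to 0.62, while RAB40B lay at 0.66 to 0.87 over the 12 fits without 1 library.

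In shCtrl cells the polysome-to-total ratio spanned -1.49 (RAB39A) to 2.45 (RAB25) on the log2 scale. By the same thresholds polysome RNA was higher than total RNA in 20 members (32.5% of all genes tested) and lower in 12 (39.8%), and the fractions did not overlap upward in 22 members and downward in 13, against 33.4% and 43.2%. The median was 0.17 for the members and -0.22 for all genes tested. Scaling by total counts moved both medians, to -0.83 and -1.22, so the ratios are meaningful only relative to other genes. RAB4A (2.33), RAB9A (2.33) and RAB32 (2.22) were among the members most on polysomes, and RAB3B (-1.46), RAB43 (-1.37) and RAB5B (-1.25) among those least on polysomes. Of the exon length of RAB43, 79.3% is shared with the readthrough gene ISY1-RAB43. The RAB43 ratio rests on 3, 3 and 18 counts in shCtrl polysome RNA. That of RAB25 rests on 17, 14 and 9 counts in shCtrl total RNA. RAB5C, which acts at the same step as RAB5B, stood at 0.98. Spearman's rho of this ratio with 3′ UTR length was -0.43 across the members and -0.36 over all genes.

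Genes that load, release and read RABs were described from lists, beside the 10.7% TE-up and 16.4% TE-down of all genes tested. Of 34 exchange factors tested, 4 were TE-up and 7 TE-down, and DENND6B (2.17) and GAPVD1 (-1.75), an exchange factor of RAB5, were among them. RABGEF1, another RAB5 exchange factor, rose by 1.84 in TE, and its total RNA changed by -2.06. Of 32 TBC-domain GAPs, 4 were TE-up and 6 TE-down, with TBC1D20 (1.02), the GAP of RAB1, and EVI5 (-1.84). Of 43 effectors, 6 were TE-up and 12 TE-down, with RAB11FIP3 (1.96), which binds RAB11, and EEA1 (-1.81), the early endosome tether of RAB5. Of 14 TRAPP subunits, 3 were TE-up and 2 TE-down. Of 6 genes of prenylation and GDI, 0 were TE-up and 2 TE-down, and GDI2 had a TE change of -1.39 (SE 0.27, adjusted p = 0.00135, edgeR). With the length trend removed, where 11% of all genes were TE-up and 9.42% TE-down, exchange factors had 6 TE-up and 3 TE-down, GAPs 8 and 3, effectors 6 and 4, TRAPP subunits 2 and 1, and prenylation and GDI genes 0 and 1. For exchange factors, GAPs and effectors this turned the balance from more TE-down to more TE-up members, as it did over all genes tested.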

How the data were processed

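Total and polysome-associated RNA of shCtrl and shPRRC2B HEK293T cells was measured in 12 libraries. The authors deposited raw counts of read pairs per gene name without normalization, after Trimmomatic 0.36, Hisat (HISAT2 2.1.0 in the submitters' processing notes) on GRCh38 and featureCounts of Subread 2.0.1 on GENCODE 38. No strand option of the counting is given in the sources used here, so antisense overlaps cannot be resolved. The induction time came from the paper. All tests on these counts used edgeR 4.0.16 under R 4.3.3, with filterByExpr (minimum count 10), TMM over 12 libraries, glmQLFit and glmQLFTest without a block, and Benjamini-Hochberg adjustment over all genes tested. Calls needed an adjusted p below 0.05 and an absolute log2 change above 0.5. Printed levels are CPM on the TMM scale, and ratios for the overlap of groups used a prior of 0.5 CPM. Depth was 9855734 to 20837542 counts.

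Positions and lengths were taken from GENCODE 44 (GRCh38), using canonical transcripts, and 86.8% of the genes tested had one. PAR-CLIP site positions were read from the study's site lists and their sequences from hg38. Members and lists were chosen with earlier results of these data known. The genes named were those with a PAR-CLIP site, the RAB5 and RAB7 families, the up to 8 largest TE rises and falls with at least 10 CPM and no overlap, family pairs that differed by more than 1, and the largest changes in 1 fraction without a TE call. Other names were chosen after their values were seen.

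Alternatives were DESeq2 1.42.0, limma 3.58.1 on log2(CPM + 1), other scalings and filters, blocks for the replicate number, a lowess trend on transcript length (span 0.3) removed from each library, and each library left out in turn with the same genes kept. The setting without both polysome replicates 1, and the alternatives for the shCtrl ratio and for the correlation with 3′ UTR length, were added after the data were seen. All 3 tools were tested on simulated data. There, limma called many more unchanged genes than edgeR or DESeq2, nearly all of them where a group was under 10 CPM, so calls made by limma alone in low genes carry little weight. Its limit in that test was relaxed to genes above this level after the first run had failed.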

Additional observations from a re-analysis of the deposited data

Results flagged for a closer look

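Among the members, 17 had a knockdown effect that differed between the polysome fraction and total RNA by the interaction term of the edgeR fit. Upward, the log2 differences were 1.53 for RAB26, 1.18 for RAB32, 1.10 for RAB39A, 1.10 for RAB24, 0.84 for RAB28, 0.82 for RAB40B and 0.72 for RAB23. Downward, they were -1.95 for RAB3B, -1.43 for RAB2B, -1.10 for RAB6A, -1.02 for RAB21, -0.97 for RAB8B, -0.89 for RAB7A, -0.80 for RAB14, -0.76 for RAB11A, -0.72 for RAB10 and -0.57 for RAB2A. The shares were 12.5% and 17.9% of the members tested, against 10.7% and 16.4% of all genes tested.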

How the results depend on the processing

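The number of TE-down members, 10 as reported, was 6 with scaling by total counts, 6 with TMM within each fraction, 5 with the length trend removed, 5 with the length trend removed and the replicate block, and 21 without both polysome replicates 1. The first 4 of these are 10.7%, 10.7%, 8.93% and 8.93% of the members, against 14.4%, 14.9%, 9.42% and 8.53% of all genes under the same settings, and the last is 37.5% against 22.7%. Leaving out 1 library gave 5 to 17. RAB14, RAB2A, RAB7A and RAB8B lost their call both with scaling by total counts and with TMM within each fraction. The number of TE-up members, 7 as reported, lay within 1.5 times of that in every setting run and was 5 to 8 with 1 library left out. Members with higher total RNA, 11 as reported, numbered 6 with scaling by total counts, 7 with TMM within each fraction, 6 with the length trend removed, 6 with that and the replicate block, and 6 to 10 with 1 library left out. Members with lower total RNA numbered 6 to 11 with 1 library left out, and members with lower polysome RNA 11 to 21, and 22 without both polysome replicates 1. Members with a higher shCtrl ratio numbered 7 with scaling by total counts and 7 with TMM within each fraction, and those with a lower ratio 33 and 32. Both scalings shift the median ratio of all genes to -1.22. For total RNA, polysome RNA and the shCtrl ratio, shares of all genes under these settings were not counted. A shift of the whole series therefore cannot be told from 1 of the members. The rho of TE change and 3′ UTR length was -0.075 with the length trend removed and -0.062 with the replicate block as well, and -0.53 to -0.37 with 1 library left out.

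The TE change turned sign only in members without a TE call. With 1 library left out it spanned -0.045 to 0.42 for RAB18, -0.56 to 0.30 for RAB3A and -0.92 to 0.62 for RAB40A, with the turned value without shCtrl polysome replicate 1 in each, and without both polysome replicates 1 it was -0.16, 0.34 and 0.70. RAB38 was 0.14 without both, and with 1 library left out it spanned -3.18 to 0.25, above 0 when replicate 1 of shPRRC2B total RNA or replicate 1 or 3 of shPRRC2B polysome RNA was left out. With limma on log2(CPM + 1), RAB25 was -0.64 and the log2 TE change of RAB40A was 0.00082. With the length trend removed, RAB30 was 0.45, RAB31 0.034, RAB6B 0.43 and RAB39B 0.17, and with the replicate block as well 0.46, 0.034, 0.44 and 0.17. The log2 TE change of RAB39B was 0.034 with scaling by total counts, 0.048 with TMM within each fraction, 0.048 with at least 10 counts in every library, and -0.13 to 0.059 with 1 library left out, above 0 without shCtrl total replicate 1 or 2 or shPRRC2B total replicate 2 or 3. The cause of these changes was not tested.

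Whether the replicate numbers pair the samples is not known. The correlation of the deviations of total and polysome libraries with the same number was 0.12, 0.0918 and 0.35 in shCtrl cells. It was 0.0607, -0.0468 and 0.407 in shPRRC2B cells. Libraries with unlike numbers were not compared, so these values cannot decide it. With the replicate block 5 members were TE-up and 8 TE-down (8.93% and 14.3%), against 9.97% and 15.5% of all genes. With the replicate block within each line 5 were TE-up and 12 TE-down (8.93% and 21.4%), against 9.12% and 14.7%. RAB23 and RAB39A were not called under either, RAB14 and RAB8B were not called under the first, and RAB5B and RAB8A were called TE-down under the second. DESeq2 and limma gave no shCtrl ratio here. The 12 fits that left out 1 library kept the genes of the full fit.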
